A study of Homo sapiens with 9 samples.

Results

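Tight junctions seal the space between neighbouring epithelial cells and separate the apical from the basolateral membrane. Their strands hold transmembrane proteins (claudins, occludin and its relatives, and junctional adhesion molecules). Cytoplasmic scaffolds tie these to actin, and the Crumbs and PAR complexes set up the apical domain beside them. In lung adenocarcinoma cells that lose epithelial character, such junctions are commonly dismantled. The genes described here are 9 of that system, matched by symbol. They were chosen with earlier results of these data known, so counts over them are descriptions of these 9 only. They are the membrane proteins F11R, MARVELD2, MARVELD3 and OCLN, the scaffolds CGN, TJP1 and TJP3, and the polarity genes CRB3 and PARD6B. All 9 had 1 row each under their current symbol, out of 30672 genes tested.

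RNA came from HCC4006, an established lung adenocarcinoma line with a mutant epidermal growth factor receptor (EGFR), and was measured on 9 Illumina arrays, 3 per group. One group is labelled parental. Cells of the resistant group had received gefitinib, which blocks the EGFR kinase, in steps of increasing dose over 6 months. The inhibitor group is labelled gefitinib resistant and treated over 6 months with a TGFβ receptor inhibitor, which the design text names as SB431542, given in combination with gefitinib. All groups share the same single line and its EGFR mutation. No group received SB431542 without gefitinib, and none is labelled as cultured for the same time without drugs, so drug and culture time cannot be told apart in comparisons with parental cells. The resistant and inhibitor groups share the labelled time of 6 months. Their titles do not state whether the inhibitor cells came from the resistant group or were derived separately. Any difference in derivation therefore cannot be told apart from the inhibitor. Below, a rise or fall with the inhibitor is a difference between these groups. The labels do not state whether resistant cells were a clone or a pool, nor whether replicates were separate cultures, so p-values rest on array-to-array spread that may be only technical. In bulk RNA, fewer cells expressing a gene and less RNA per cell cannot be told apart.

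Array medians lay between 91.1 and 91.3, on a linear intensity scale from which background had not been subtracted. Background was set at 90.3, the 95th percentile of the mean intensities of 377 olfactory receptor rows, genes that lung cells hardly express. Within groups, Pearson's r between arrays across genes was 0.996 to 0.998. Inhibitor replicate 2 stood apart, with r = 0.990 and 0.991 against its partners. Results that rest on that array are given with and without it. All 5 epithelial markers (EPCAM, CDH1, KRT8, KRT18, KRT19) were above background in every group; their summed intensity was 13037 to 14713 in parental, 6268 to 6474 in resistant and 17149 to 21611 in inhibitor arrays. Of 5 leukocyte markers only CD14 exceeded background in any group; the sum ran from 853 to 946 in parental, 504 to 544 in resistant and 485 to 514 in inhibitor arrays, and the defining marker PTPRC stayed at 86.9 to 90.2 in group means. Of 5 fibroblast markers LUM and COL1A1 exceeded it, with sums of 441 to 446, 585 to 600 and 452 to 472, while DCN, PDGFRA and PDGFRB stayed at background in all groups. Of 5 endothelial markers 4 exceeded it slightly in some group, with sums of 440 to 453, 427 to 435 and 438 to 451. Within the epithelial list, EPCAM, CDH1 and KRT19 were lower in resistant cells (log2 changes of -1.35, -1.43 and -1.57), while KRT8 and KRT18 were higher (0.70 and 0.58, adjusted p = 0.000215 and 0.000799). The part of CD14 and LUM, which moved with the groups, in the results below was not tested.

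The first comparison asked how the junction genes differed between resistant and parental cells. Of the 9 genes, 6 were lower in resistant cells (F11R, MARVELD2, MARVELD3, CGN, TJP3 and CRB3), 1 was higher (TJP1) and 2 did not pass (OCLN and PARD6B) at an adjusted p under 0.05 in limma. Over all 30672 genes, 10.2% were lower and 10.2% higher, 20.5% in either direction. Of the 9, 8 were above background in some group. Among the 16240 genes with a mean above background, 3258 were lower and 3357 higher. Groups did not overlap for 7 of the 9 genes, and for 34.5% of all genes (16.7% lower, 17.8% higher). The median log2 change of the 9 genes was -1.02, against 0.0045 over all genes. In inhibitor cells 7 of the 9 were higher than in resistant cells, where 8.68% of all genes were higher, and none was lower, where 8.81% were (limma; none at an unadjusted p under 0.05 either). Called in either direction were 17.5% of all genes. Among the 16240 genes with a mean above background, 2856 were higher and 2956 lower. Groups did not overlap for 7 of the 9 genes, all higher, and for 30.1% of all genes (14.7% higher, 15.3% lower). The median change was 1.06, against -0.00078 over all genes. These comparisons share the resistant arrays.

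**Figure D1:**
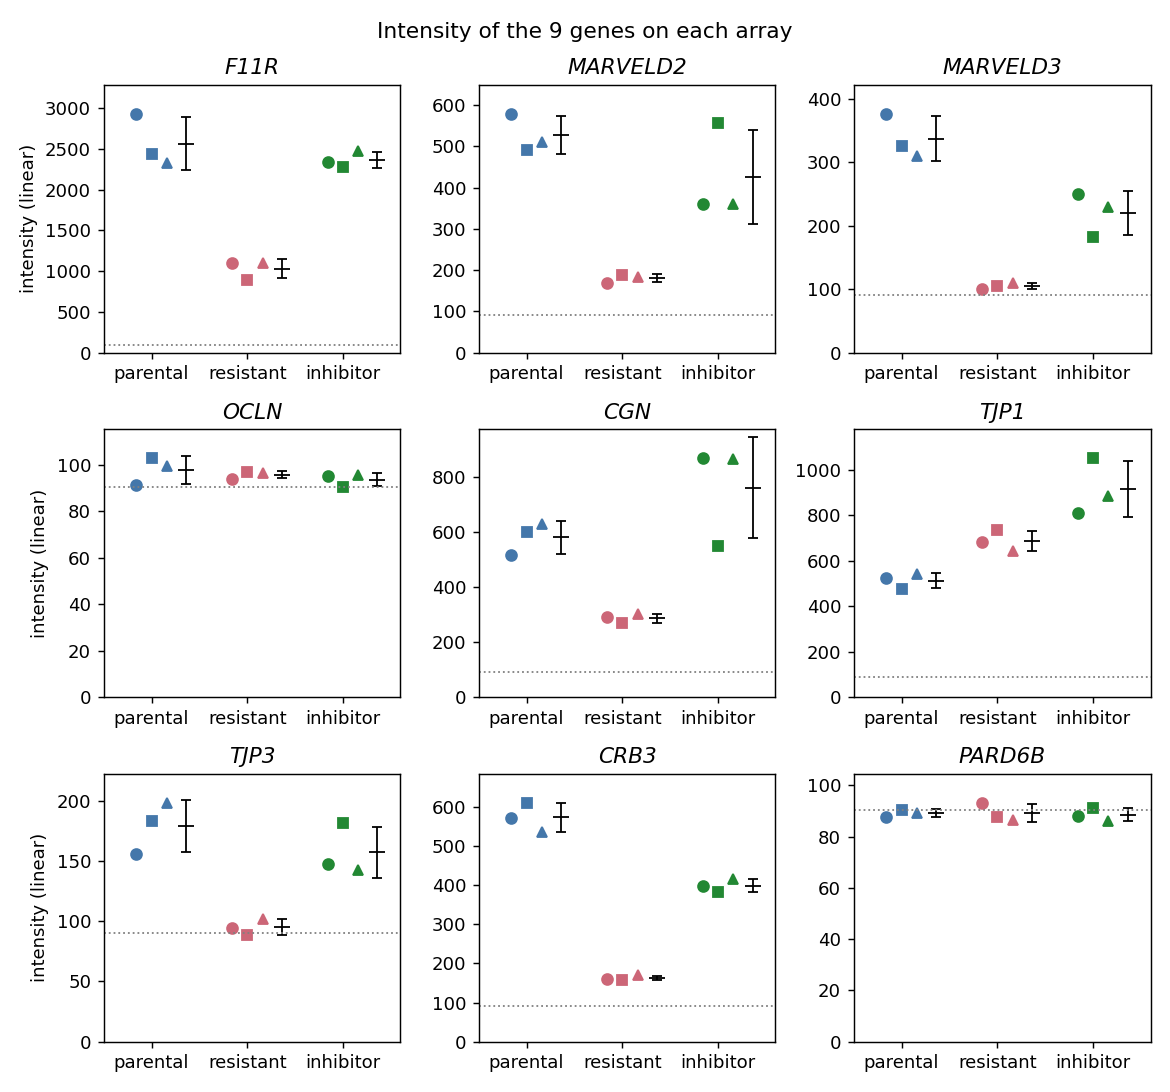
Linear intensity (vertical axis, from 0) of each gene on each of the 9 arrays, by group; circles, squares and triangles are replicates 1, 2 and 3, the black bar is the mean ± SD of 3 arrays, and the dotted line is the background stand-in of 90.3. F11R, MARVELD2, MARVELD3, CGN, TJP3 and CRB3 dip in the resistant arrays, TJP1 climbs from group to group, and OCLN and PARD6B lie along the background line.

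Among the membrane proteins, F11R encodes junctional adhesion molecule A, an immunoglobulin-like adhesion protein that recruits PAR3 to new cell contacts. Its intensity was 2933, 2434 and 2321 in the parental arrays, 1096, 892 and 1104 in the resistant arrays, and 2342, 2283 and 2475 in the inhibitor arrays. All resistant arrays were below all others, while parental and inhibitor arrays overlapped. The log2 change in resistant cells was -1.31 ± 0.11 (SE; 2.49-fold lower, adjusted p = 3.44e-08). With the inhibitor it was 1.21 ± 0.11 above resistant cells (2.31-fold higher, adjusted p = 1.79e-07). The remaining difference from parental cells, -0.11 ± 0.11, did not pass (adjusted p = 0.655; 95% interval -0.35 to 0.13).

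MARVELD2 encodes tricellulin, an occludin relative that concentrates where 3 cells meet. Its intensity was 579.7, 491 and 511 in parental, 169.7, 189.5 and 183 in resistant, and 359.7, 558 and 359 in inhibitor arrays. Resistant arrays were again the lowest, and inhibitor replicate 2 alone stood within the parental range. The log2 change was -1.54 ± 0.14 in resistant cells (2.91-fold lower, adjusted p = 8.06e-08). It was 1.21 ± 0.14 with the inhibitor (2.31-fold higher, adjusted p = 3.22e-06), and 0.99 ± 0.10 without inhibitor replicate 2 (adjusted p = 3.41e-08). Against parental cells the inhibitor group differed by -0.34 ± 0.14 without passing (adjusted p = 0.137). Without that array the difference passed, at -0.55 ± 0.10 (adjusted p = 0.000183; range over 17 alternatives, 0.000183 to 0.415).

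MARVELD3, the remaining member of the occludin and tricellulin family, stood at 377, 325 and 309 in parental, 100.1, 105 and 109 in resistant, and 249.6, 182 and 229.7 in inhibitor arrays. The groups did not overlap with each other. The resistant mean of 105 ± 4.64 (SD, n = 3) lay little above background. The log2 change was -1.68 ± 0.11 in resistant cells (3.21-fold lower, adjusted p = 4.21e-10), and 1.06 ± 0.11 with the inhibitor (2.09-fold higher, adjusted p = 4.38e-07). It stayed below parental cells by a log2 difference of -0.62 ± 0.11 (adjusted p = 0.000331). Without inhibitor replicate 2 the rise was 1.19 ± 0.09 and the difference from parental cells -0.49 ± 0.09.

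OCLN encodes occludin, the founding protein of that family. It stood at 91.3, 103 and 99.5 in parental, 94.1, 96.7 and 96.4 in resistant, and 95.03, 90.4 and 95.5 in inhibitor arrays. The groups overlapped, and all arrays lay close to background. No comparison passed (adjusted p = 0.769, 0.759 and 0.502), and the 95% interval of the resistant change was -0.13 to 0.07. At such a signal a change in occludin RNA was not detectable, and the row may also read the transcribed near-copy OCLNP1.

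Among the scaffolds, CGN encodes cingulin, a cytoplasmic protein that links the junction to actomyosin. Its intensity was 515, 600.1 and 629 in parental, 289.6, 269 and 301 in resistant, and 868, 549 and 866 in inhibitor arrays. Resistant arrays were the lowest, and inhibitor replicates 1 and 3 exceeded every parental array while replicate 2 fell among them. The log2 change was -1.02 ± 0.15 in resistant cells (2.02-fold lower, adjusted p = 4.05e-05). With the inhibitor it was 1.38 ± 0.15 (2.601-fold higher, adjusted p = 1.37e-06), and 1.60 ± 0.11 without inhibitor replicate 2 (adjusted p = 5.11e-11). Against parental cells the difference of 0.36 ± 0.15 did not pass (adjusted p = 0.135). Without that array it passed, at 0.58 ± 0.11 (adjusted p = 0.000265; range over 17 alternatives, 0.000265 to 0.407).

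TJP3 encodes zonula occludens protein 3, one of the PDZ scaffolds that hold claudins and occludin to actin. It stood at 156, 183 and 199 in parental, 94.4, 88.5 and 101.9 in resistant, and 147, 182 and 143 in inhibitor arrays. Resistant arrays lay close to background and below all others, and parental and inhibitor arrays overlapped. The log2 change was -0.91 ± 0.09 in resistant cells (1.88-fold lower, adjusted p = 4.48e-07), and 0.72 ± 0.09 with the inhibitor (1.65-fold higher, adjusted p = 1.34e-05). That rise was 0.61 ± 0.08 without inhibitor replicate 2. The difference between inhibitor and parental cells, -0.19 ± 0.09, did not pass (adjusted p = 0.23). It passed without inhibitor replicate 2, at -0.30 ± 0.08 (adjusted p = 0.0121; range over 17 alternatives, 0.0121 to 0.614).

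TJP1 encodes the related scaffold zonula occludens protein 1 and took a different course. Its intensity was 522, 476 and 542 in parental, 682, 734 and 643 in resistant, and 809, 1051 and 884 in inhibitor arrays. The order was parental, resistant, inhibitor, with no overlap between groups. The log2 change was 0.42 ± 0.12 in resistant cells (1.34-fold higher, adjusted p = 0.0165) and 0.41 ± 0.12 from resistant to inhibitor cells (1.33-fold higher, adjusted p = 0.024). The calls of the single steps depended on which arrays were in the fit, while the changes stayed positive. The resistant step kept log2 changes of 0.37 to 0.42 but lost its call without parental replicate 2 (adjusted p = 0.0885) or resistant replicate 1 or 2 (adjusted p = 0.0568 and 0.0908; 0.00125 to 0.0908 across the 17 alternatives). The inhibitor step kept 0.40 and 0.36 but was not called with resistant replicate 1 or 3 left out (adjusted p = 0.0825 and 0.111; 0.0128 to 0.111 across the 17 alternatives). It was smallest without inhibitor replicate 2, at 0.30 ± 0.10 (adjusted p = 0.0487). The full step from parental to inhibitor cells was 0.83 ± 0.12 (1.78-fold higher, adjusted p = 5.86e-05), with adjusted p-values of 1.64e-05 to 0.000891 over 17 alternatives. Without inhibitor replicate 2 that full step was 0.72 ± 0.10.

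Among the polarity genes, CRB3 encodes a small Crumbs protein of the apical membrane that binds PALS1 and PAR6 through its cytoplasmic tail. Its intensity was 572, 610.4 and 536 in parental, 160.0, 158 and 169 in resistant, and 397, 382 and 415 in inhibitor arrays. The groups did not overlap, and inhibitor replicate 2 was the lowest inhibitor array by a small margin. Before background subtraction CRB3 had the largest fall of the 9 genes, a log2 change of -1.82 ± 0.10 (3.53-fold lower, adjusted p = 3.55e-11). With the inhibitor it rose by 1.29 ± 0.10 (2.45-fold higher, adjusted p = 8.98e-09), and it remained below parental cells at a log2 difference of -0.52 ± 0.10 (1.44-fold lower, adjusted p = 0.000722).

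PARD6B encodes PAR6 beta, an adaptor that joins atypical protein kinase C to CDC42. It stood at 87.5, 90.5 and 89.4 in parental, 93.3, 87.9 and 86.5 in resistant, and 88.2, 91.2 and 86.3 in inhibitor arrays. Every group mean was within background, so its level and any change in it were not measurable here (adjusted p = 0.992, 0.921 and 0.94 in the 3 comparisons).

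**Figure D2:**
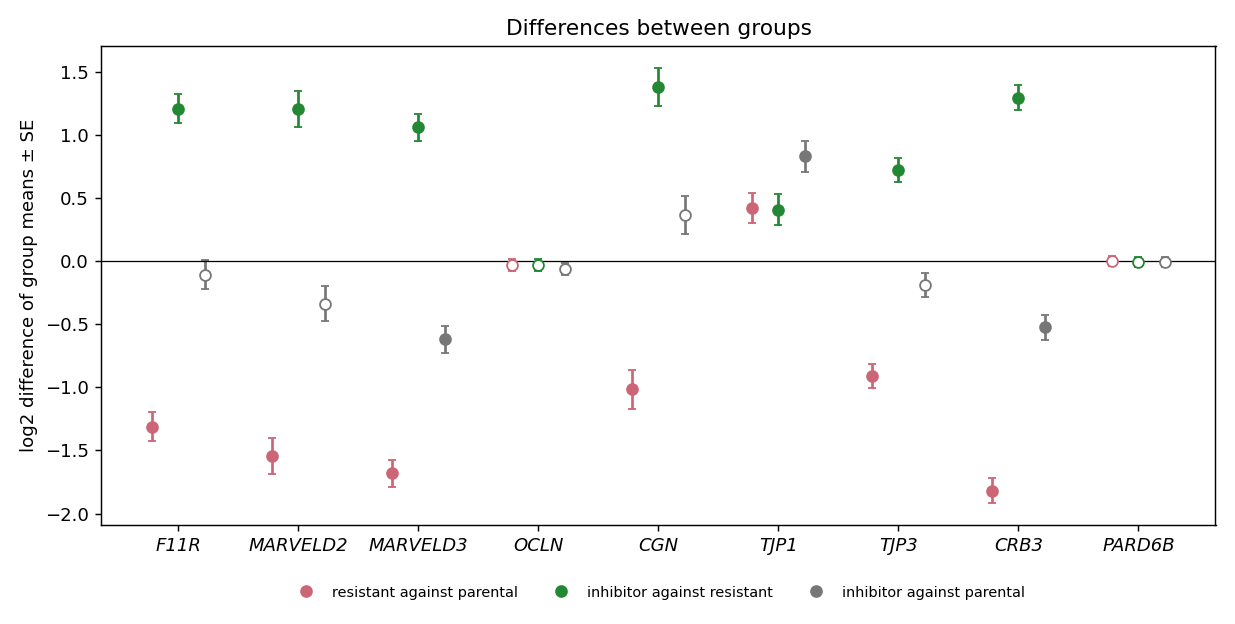
Log2 difference of group means (vertical axis) with its SE for the 9 genes in the 3 comparisons; filled points passed an adjusted p under 0.05 and open points did not. Changes in resistant cells run from -1.82 (CRB3) to 0.42 (TJP1), and those from resistant to inhibitor cells are positive wherever a gene was called.

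Because background was left in the intensities, folds of genes near it are understated. With the median of the olfactory receptor rows subtracted, the resistant fall became 6.33-fold for CRB3 and 4.63-fold for MARVELD2, and the rise with the inhibitor 4.06-fold for CRB3. After subtraction, 2 of 3 resistant arrays of TJP3 and 1 of 3 of MARVELD3 lay on the floor of 16. Their folds were set in part by that floor and by the background value taken, so they are not bounds. The fall became 5.71-fold for TJP3 and 12.7-fold for MARVELD3, and the rise 4.32-fold and 6.71-fold. The other called members moved by less than 1.5 times, and no called member lost its call. OCLN and PARD6B had no group above the floor on all arrays and were not tested on that scale.

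The third comparison asked how far the inhibitor group stood from parental cells. Of the 9 genes, CRB3 and MARVELD3 were lower than in parental cells, where 7.79% of all genes were, and TJP1 was higher, where 7.13% were (14.9% in either direction). The other 6 did not pass. Groups did not overlap for these same 3 genes, and for 27.7% of all genes (14% higher, 13.7% lower). Without inhibitor replicate 2, 4 were lower (MARVELD2 and TJP3 in addition) and 2 were higher (CGN in addition), where 8.18% of all genes were lower and 8.04% higher. Placed on the log2 distance between the resistant mean (0) and the parental mean (100%), the inhibitor mean lay at 63.1% for MARVELD3, 71.2% for CRB3, 78.1% for MARVELD2, 79.1% for TJP3, 91.8% for F11R and 136% for CGN. Single arrays spread narrowly for CRB3 (67.9% to 74.5%) and F11R (87.9% to 96.7%). They spread widely for MARVELD2 (64.4% to 106%), TJP3 (64.6% to 103%), MARVELD3 (47.3% to 74.6%) and CGN (92.4% to 157%). Inhibitor replicate 2 was the extreme array for each of these 4 genes, highest for MARVELD2 and TJP3 and lowest for MARVELD3 and CGN. Its intensity was 1.55 times the geometric mean of the other inhibitor arrays for MARVELD2, 1.25 times for TJP3 and 1.24 times for TJP1, and 0.633 times for CGN and 0.759 times for MARVELD3. Without it the means were 64.4% for MARVELD2, 67.1% for TJP3, 71.0% for MARVELD3 and 157% for CGN. The ranges over single arrays do not hold the error of the parental and resistant means. F11R lay at 99.4% without parental replicate 1, and CRB3 at 76.0% with background subtracted, each outside its range.

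**Figure D3:**
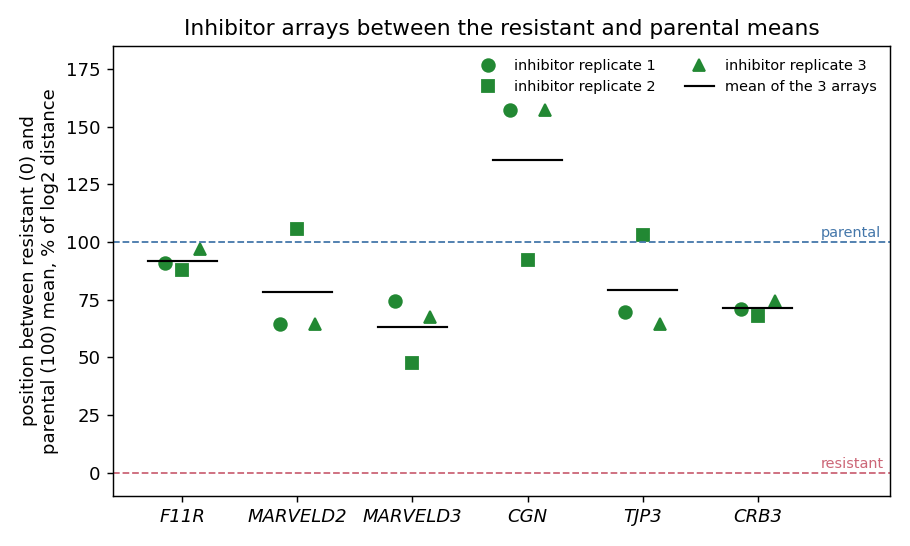
Position of each inhibitor array (symbols) and their mean (black line) between the resistant mean (0) and the parental mean (100) of each gene that fell in resistant cells, in percent of the log2 distance. CRB3 and F11R cluster tightly below 100, whereas replicate 2 (squares) stands apart from the other arrays for MARVELD2, MARVELD3, CGN and TJP3.

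Promoter windows were looked up for the 9 genes because most of them moved together. RefSeq windows (GRCh38.p14; 300 bases, 250 before to 50 after an annotated start) were matched for 6 genes, in 11 windows. None was available for F11R, MARVELD3 and PARD6B. They were searched for CACCTG or CAGGTG, which are 1 motif read on either strand. This motif is the E-box form that SNAI and ZEB repressors are known to bind, and it lies within the general E-box CANNTG. Over all 35116 windows, 20.6% held it at least once and 0.0940% held it 5 times or more. CRB3 held it 5 times. OCLN held it in both of its windows, TJP1 in 1 of 4 and TJP3 in 1 of 2, and CGN and MARVELD2 had no match. Of the genes with a match, CRB3 and TJP3 were lower in resistant cells, TJP1 was higher and OCLN was not called. AACCGGTT, a form that Grainyhead-like factors are known to bind, occurred in 0.134% of all windows and in none of these 11. Only this exact form was counted, and forms that differ from it by 1 letter were not. A match is a description of letters only. The CRB3 window is shown as the one with most matches, CGN and MARVELD2 as windows without one, and TJP1 as a window with 1; capitals mark the motif, and all are read 5′ to 3′ on the gene's strand.
CRB3 (chr19:6464021-6464320, plus strand): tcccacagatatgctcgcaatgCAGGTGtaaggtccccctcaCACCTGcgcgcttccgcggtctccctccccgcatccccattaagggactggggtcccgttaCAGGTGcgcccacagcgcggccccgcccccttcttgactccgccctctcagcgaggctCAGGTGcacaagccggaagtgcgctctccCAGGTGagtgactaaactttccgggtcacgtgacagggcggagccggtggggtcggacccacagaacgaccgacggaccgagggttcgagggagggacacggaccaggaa
CGN (chr1:151511137-151511436, plus strand): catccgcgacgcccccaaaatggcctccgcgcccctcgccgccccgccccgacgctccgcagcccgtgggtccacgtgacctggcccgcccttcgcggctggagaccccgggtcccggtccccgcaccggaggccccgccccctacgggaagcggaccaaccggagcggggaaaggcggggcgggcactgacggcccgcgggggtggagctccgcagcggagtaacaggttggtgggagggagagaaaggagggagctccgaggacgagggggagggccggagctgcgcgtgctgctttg
MARVELD2 (chr5:69414866-69415165, plus strand): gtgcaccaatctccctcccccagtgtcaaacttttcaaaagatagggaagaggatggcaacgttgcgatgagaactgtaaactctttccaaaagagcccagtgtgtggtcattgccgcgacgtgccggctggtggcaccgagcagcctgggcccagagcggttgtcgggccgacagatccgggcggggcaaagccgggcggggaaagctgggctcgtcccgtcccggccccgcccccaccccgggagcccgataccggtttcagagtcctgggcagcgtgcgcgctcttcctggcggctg
TJP1 (chr15:29969000-29969299, minus strand): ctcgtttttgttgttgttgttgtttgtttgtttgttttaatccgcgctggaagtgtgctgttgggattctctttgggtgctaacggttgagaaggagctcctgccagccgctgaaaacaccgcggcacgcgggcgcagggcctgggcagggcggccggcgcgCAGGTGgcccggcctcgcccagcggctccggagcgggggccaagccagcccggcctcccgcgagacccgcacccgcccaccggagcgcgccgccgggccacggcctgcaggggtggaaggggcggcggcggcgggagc

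In the CRB3 window the matches began at -228, -208, -147, -89 and -60 relative to the annotated start, and in the TJP1 window at -88.

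The remaining junction and polarity genes were read from 6 lists with 52 genes. In resistant cells 11 of the 52 were lower and 6 higher (10.2% of all genes each way), a median log2 change of -0.0039 against 0.0045 over all genes. From resistant to inhibitor cells 14 were higher and 7 lower (8.68% and 8.81% of all genes; median 0.021 against -0.00078), and between inhibitor and parental cells 10 were higher and 7 lower (7.13% and 7.79% of all genes; median -0.0039 against 0.0045). The 14 became 8 without resistant replicate 1 or 2 and 9 without inhibitor replicate 1. The 10 became 3 to 6 without any 1 parental array or inhibitor replicate 1 or 3, and 5 when only those groups were fitted. The 7 lower against parental cells became 4 and 3 without parental replicates 1 and 2, and 4 with background subtracted. Of the 52, 44 were above background in some group. With dim genes left out, 11 listed genes were lower and 7 higher in resistant cells, against 3258 and 3357 of 16240 genes. From resistant to inhibitor cells 15 were then higher and 7 lower, against 2856 and 2956. Between inhibitor and parental cells 12 were higher and 7 lower, against 2421 and 2590.

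Among 8 further junction membrane proteins, 2 fell and 2 rose in resistant cells. ILDR1, an angulin that recruits tricellulin to tricellular contacts, fell by 2.06 ± 0.09 on the log2 scale, from a mean intensity of 460.1 ± 37.2 to 109.9 ± 4.41 (SD, n = 3; adjusted p = 3.44e-12). It rose by 0.64 ± 0.09 with the inhibitor and remained below parental cells at -1.43 ± 0.09 (adjusted p = 1.39e-09). LSR, another angulin, fell by 0.71 ± 0.14 (adjusted p = 0.000952) and rose by 0.94 ± 0.14 with the inhibitor. In inhibitor replicate 2 LSR stood at 403, against 229 and 259.6 in the other inhibitor arrays. Without that array LSR rose by 0.70 ± 0.08. JAM3 (junctional adhesion molecule C) and CLMP, an adhesion molecule related to CXADR, went the other way. They rose by 0.46 ± 0.05 and 0.68 ± 0.07 in resistant cells and fell by 0.63 ± 0.05 and 0.46 ± 0.07 with the inhibitor, but the JAM3 inhibitor mean (86.7) and the CLMP parental mean (88.3) were not above background, so the JAM3 fall and the CLMP rise are differences from background. The JAM3 rise also started close to background, at a parental mean of 97.0. After background subtraction all 3 of its parental arrays lay on the floor. CXADR, the coxsackievirus and adenovirus receptor, did not pass in resistant cells (-0.32 ± 0.11, adjusted p = 0.0536) and rose by 0.52 ± 0.11 with the inhibitor (adjusted p = 0.00237).

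Among 8 further scaffolds and adaptors, 2 fell and 1 rose in resistant cells. CGNL1 (paracingulin), the close relative of cingulin, fell by 0.58 ± 0.12 (adjusted p = 0.00108). No change with the inhibitor was called (-0.23 ± 0.12, adjusted p = 0.24); the inhibitor group stayed below parental cells at -0.81 ± 0.12 (adjusted p = 5.92e-05). The multi-PDZ scaffold MPDZ rose by 0.52 ± 0.07 and fell by 0.39 ± 0.07 with the inhibitor. Its relative PATJ, which binds PALS1 in the Crumbs complex, fell by 0.18 ± 0.05, at means of 108 and 95.04 near background.

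In the Scribble group of basolateral polarity genes, 3 of 7 fell and 1 rose in resistant cells. DLG3, a membrane-associated guanylate kinase, fell by 1.01 ± 0.08 (adjusted p = 6.33e-09) and rose by 0.80 ± 0.08 with the inhibitor. The paralogues LLGL1 and LLGL2 moved oppositely: LLGL1 rose by 0.63 ± 0.09, and LLGL2 fell by 0.23 ± 0.05 at means of 106 and 90.5 near background, a call lost on the background-subtracted scale, where all 3 resistant arrays were at the floor and the change was -0.38 ± 0.18 (adjusted p = 0.106; range over 17 alternatives, 0.000411 to 0.106). SCRIB did not pass in resistant cells and rose by 0.56 ± 0.13 with the inhibitor (adjusted p = 0.00379). Among 10 PAR and atypical protein kinase C genes, 2 fell and 1 rose. PRKCZ, a kinase of the PAR complex, fell by 0.61 ± 0.14 (adjusted p = 0.00241). It rose by 0.51 ± 0.14 with the inhibitor (adjusted p = 0.0121), and by 0.73 ± 0.09 without inhibitor replicate 2. That array, at 216, stayed within the resistant range. The call of the PRKCZ rise was lost without resistant replicate 1 or inhibitor replicate 1 or 3. The log2 changes were then 0.46, 0.43 and 0.38 (adjusted p = 0.0741, 0.0632 and 0.0724). It was also lost without the intensity trend, at 0.51 (adjusted p = 0.0514). Over 17 alternatives the adjusted p was 1.47e-06 to 0.0741. Among 9 Crumbs complex genes 1 fell, LIN7A, whose means of 98.8 and 86.6 were near background, and 8 did not pass.

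Among 10 signalling genes of the junction, 1 rose and 1 fell in resistant cells. MYH9, a nonmuscle myosin heavy chain of the contractile ring beneath the junction, rose by 0.81 ± 0.10 (adjusted p = 7.11e-06). It stayed above parental cells in the inhibitor group at 0.66 ± 0.10 (adjusted p = 0.000133). ARHGAP17, a GTPase-activating protein for CDC42 and RAC, and RAB13, a GTPase of junction membrane traffic, did not pass in resistant cells. They fell by 0.87 ± 0.16 and 0.53 ± 0.11 from resistant to inhibitor cells (adjusted p = 0.000697 and 0.00224). Without inhibitor replicate 2 ARHGAP17 fell by 0.64 ± 0.12.

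**Figure D4:**
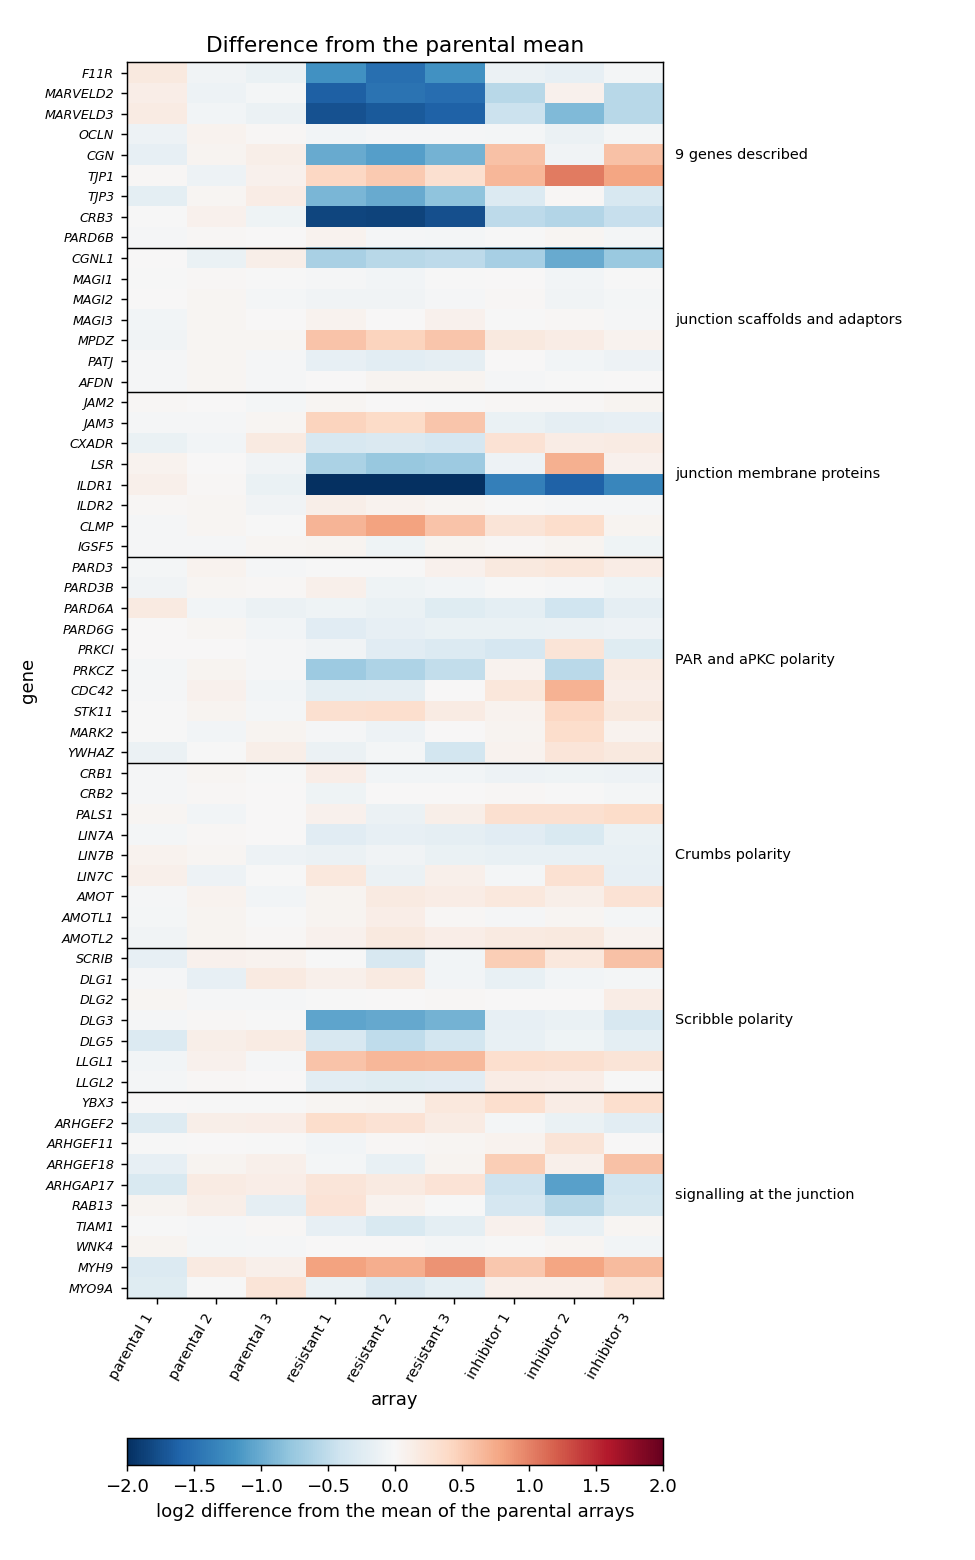
Log2 difference of each array (columns) from the parental mean for the 9 genes described and for other junction and polarity genes (rows, by list); blue is lower, red is higher, and colours are capped at ±2. Resistant columns are blue for most of the 9 genes, for ILDR1 and for DLG3, while most other rows stay pale.

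The genes whose profile was most like the 9 genes were found by Pearson correlation over the 9 arrays, among 2012 bright and variable genes. The 9 genes themselves, the other listed junction and polarity genes and the non-epithelial markers were not eligible. Since the arrays form 3 groups, such a correlation mainly follows the group means and is a description. For the mean of the 8 members above background in some group, the closest were ERP27, CTSH, EFHD1, GJB2 and the small GTPase gene RAB25 (r = 0.999 to 0.996). GJB2, which encodes a gap junction connexin, stood at 306, 133 and 303 in parental, resistant and inhibitor means. For CRB3 they were FBP1, RGCC, RNASE1, SH3BGRL2 and MALL (r = 0.998 to 0.996). For F11R the closest was TSTD1 (r = 0.992), which RefSeq lists beside F11R with only a pseudogene between them. For CGN it was COL17A1, which encodes a hemidesmosome collagen (r = 0.993), for MARVELD2 GSKIP (r = 0.991), for MARVELD3 NDN (r = 0.993) and for TJP3 TMC6 (r = 0.984). TJP1 resembled FTSJ1 (r = 0.975), then KRT8P45, KRT8P9, SULF2 and PICALM (r = 0.974 to 0.970); the KRT8P rows are pseudogenes of KRT8 and may read its RNA.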

How the data were processed

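Per the labels' protocols, total RNA was obtained by Trizol extraction, RNeasy clean-up and DNase I treatment, and labelled as biotinylated cRNA with an Ambion MessageAmp kit for Illumina arrays. The deposited table holds 1 linear intensity per gene symbol and array (34687 rows, 72.65 to 11567). Sorted values of the arrays differed from their mean by at most 0.0178 on the log2 scale, as quantile normalization gives; the sources used here do not give scanner, software, probe sequences or probe summary. Depth does not apply to arrays, and their number limits the precision.

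Left out were 3270 UniGene-only rows. Names were updated through RefSeq GRCh38.p14 (17757 rows by current symbol, 2669 by gene number, 3303 by older symbol, 7688 kept); of several rows for a gene the brightest was used. Log2 intensities were fitted in limma 3.58.1 (R 4.3.3) with a mean per group over all 9 arrays and an intensity trend, with Benjamini-Hochberg adjustment over 30672 genes; calls were made below an adjusted p of 0.05. Log2 changes carry SE and intensities SD. The fit was also run on simulated data with independent noise, in which only bright genes were changed. That run does not cover changes in dim genes, a deviating array or replicates that are only technical. No chip or scan identity was used, so batches were not examined. Alternatives left out each array, added a replicate block, dropped the trend or dim genes, applied cyclic loess, subtracted background (floor of 16; genes above it on all arrays of a group tested), averaged rows, kept UniGene rows or fitted 2 groups alone. The 9 genes and the lists were chosen with earlier results of these data known. Named were all 9 genes and, per list, called genes with the largest changes (at most 4 per comparison); those whose call was lost in an alternative are mostly given as counts. One listed gene is counted but not reported here by name. Likeness was limited to genes with a group mean above 2 times background and a log2 range of at least 1. Left out of that search were the 9 genes, the listed genes, the non-epithelial markers and rows named only by a gene number. Figures were drawn with matplotlib 3.10.9.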

Additional observations from a re-analysis of the deposited data

How the results depend on the processing

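For the 9 genes in 3 comparisons, 18 of 27 results kept direction and side of the threshold under all alternatives run, 17 at most per result. The count of genes higher in resistant cells ran from 0 to 1 with 1 array left out, since TJP1 lost its call in 3 of these. In inhibitor against parental cells the counts ran from 1 to 2 higher and from 2 to 4 lower, the extremes without inhibitor replicate 2; the cause was not tested. The sign turned with 1 array left out only near 0: for OCLN in resistant cells (-0.0803 to 0.0058), and for PARD6B in resistant cells (-0.032 to 0.023), from resistant to inhibitor cells (-0.032 to 0.022) and from parental to inhibitor cells (-0.030 to 0.0093), none of them called. Same-numbered arrays did not deviate together (r = -0.23 to 0.036 over 9 pairs; none of 18 best matches had its own number). With the replicate number as a block, 1 gene was higher and 6 lower in resistant cells, 7 higher and 0 lower in inhibitor against resistant cells, and 1 higher and 2 lower in inhibitor against parental cells, as without it. Over all genes the block gave 2944 higher and 2974 lower in resistant cells, against 3143 and 3131 without it. Of 51 results for the other named junction genes, 27 held under all alternatives, 24 lost a call under at least 1, and none changed sign. Signal over background limits OCLN, PARD6B and the resistant levels of TJP3 and MARVELD3.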
